A study of Mus musculus with 6 samples.

Results

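The Notch pathway genes described here are 10 of the 23366 genes counted in the epithelium of the embryonic mouse small intestine: the receptors *Notch1*, *Notch2* and *Notch3*, the ligands *Dll1*, *Dll4*, *Jag1* and *Jag2*, the nuclear partners *Rbpj* and *Maml1*, and the effector *Hes1*. They were chosen by symbol, and all 10 had enough reads to be tested. RNA-sequencing was performed at embryonic day 13.5 on 3 wild type and 3 mutant libraries, the mutants having the genotype Shh-Cre-EGFP:Tcf7l1 lox/lox. In the mutants, Cre recombinase made from the *Shh* locus removes a floxed exon of *Tcf7l1*, which encodes a TCF/LEF transcription factor, in the gut epithelium from early in its development. The labels give the controls only as wild type, and no library has Cre together with an intact *Tcf7l1*, so the effects of the Cre allele and of the deletion cannot be told apart. Each library was made from 500 cells sorted for EpCAM, an adhesion protein on the surface of epithelium, and the replicates are described as biological, without a statement of whether each was 1 embryo or a pool.

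Notch receptors bind DLL and JAG ligands on neighbouring cells and are then cut, which frees an intracellular part that travels to the nucleus. There it joins the DNA-binding protein RBPJ and a Mastermind coactivator such as MAML1 and switches on genes of the HES family. In the intestine, this pathway is known for keeping progenitors undifferentiated and for the choice between absorptive and secretory cells, the latter being favoured where Notch signalling is low.

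The total count was 18216537 to 20397278 per library. The TMM-normalized counts of *Tcf7l1*, the targeted gene, were 476, 474 and 364 for wild type 1, 2 and 3 against 41.4, 33.0 and 73.0 for mutant 1, 2 and 3, and *Shh* fell from 481 ± 65.8 to 198 ± 22.6 (SD, n = 3). The groups also differed in sex: *Xist* had 0 counts in every wild type library and 229 to 424 in the mutants, while *Ddx3y* had 1837 to 2254 counts in wild type and 0 in every mutant. None of the 10 genes lies on a sex chromosome, but sex and genotype cannot be told apart in these libraries. The 9 epithelial markers summed to 8437 to 8989 CPM (counts scaled to library depth) in wild type and 8056 to 8256 CPM in the mutants, and among them *Cldn7* was higher at an adjusted p under 0.01 (edgeR) and *Cdh1*, *Krt8*, *Krt18*, *Krt19*, *Cdx2* and *Cldn6* were lower. Of 10 endothelial markers, 5 were at 0 in all libraries, among them *Cdh5* and *Kdr*, and the sum was 65.1 to 79.3 in wild type and 71.6 to 76.2 in the mutants, most of it *Egfl7*. Within that list *Sox18* fell from 42.8 ± 24.6 to 2.12 ± 2.82 normalized counts (edgeR, adjusted p = 0.00208). The part of these shifts in the values of the Notch genes was not tested. The 12 mesenchymal markers summed to 41.5 CPM in mutant 3 and to 10.3 to 19.2 CPM in wild type. Of these markers, 3 were highest in mutant 3, with *Acta2* and *Tagln* at 489 and 264 normalized counts against at most 172 and 126 in the other 5 libraries, while 8 of the 12 had a lower mean in the mutants, such as *Col3a1* and *Pdgfra*. The neural crest marker *Ednrb* was at 150 counts in mutant 3 and at most 18.6 elsewhere. Mutant 3 was also the library with the lowest *Notch3*, *Dll4*, *Jag1* and *Jag2* and the highest *Rbpj*, so results for these genes are given with and without it where they differ.

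To compare levels between genes, the counts were divided by the length of the longest annotated transcript and given as RPKM. *Hes1* was by far the most abundant of the 10 genes, at 339 RPKM in wild type (288 to 377 over 3 libraries), above 98.5% of all tested genes. The next gene, *Rbpj*, was at 1.91 RPKM (1.42 to 2.17), so that the *Hes1* level was 178-fold higher. By sequence, only 49.5% of the read-length windows of the *Rbpj* transcript differ from a copy elsewhere, as described with that gene. If only these windows gave counted reads, *Rbpj* would be at 3.85 RPKM (2.87 to 4.37) and *Hes1* 88.1-fold above it, with the order unchanged. This value was added after the data were seen. *Notch1* followed at 1.26 RPKM (1.24 to 1.27). The ligands *Dll1* and *Dll4* and the coactivator *Maml1* were at 1.01, 0.972 and 0.949 RPKM, and neighbours in this order had overlapping ranges. *Notch3* was at 0.404 RPKM (0.278 to 0.617). The lowest genes were *Notch2* at 0.233, *Jag1* at 0.222 and *Jag2* at 0.194 RPKM, again with overlapping ranges between neighbours. By full length, each of the 9 genes other than *Hes1* was above at most 25.6% of tested genes, so the receptors, ligands and nuclear partners were measured from far fewer reads than the effector. In bulk libraries, a low level in every cell and a higher level in a few cells cannot be told apart.

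**Figure D1:**
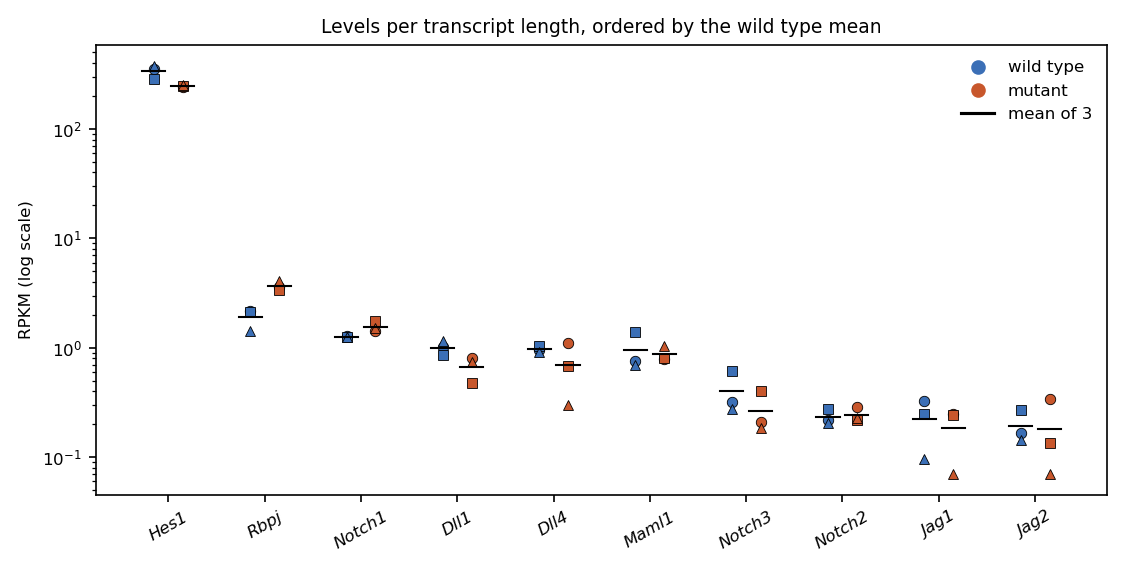
RPKM on a log scale for each of the 10 genes, ordered by the wild type mean, with 1 point per library, wild type in blue and mutant in orange, and a bar at the mean of 3 libraries. *Hes1* at 339 RPKM lies far above the other 9 genes, whose wild type means run from 1.91 down to 0.194.

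Among the receptors, none passed the test, which was edgeR's quasi-likelihood test at a Benjamini-Hochberg adjusted p under 0.01 over all 12501 tested genes. *Notch1* (ENSMUSG00000026923, chromosome 2, 26313423 to 26372183 of mm9, minus strand, 34 exons in the longest transcript) is the receptor that intestinal progenitors are best known to use. Its normalized counts were 235, 230 and 232 for wild type 1, 2 and 3 against 263, 326 and 280 for mutant 1, 2 and 3. The wild type libraries lay within a few counts of each other and all mutant libraries lay above them. The mean of 232.5 ± 2.61 in wild type compared with 289.6 ± 32.5 in the mutants (SD, n = 3), a log2 fold change of 0.32 with a 95% interval of -0.05 to 0.68 (edgeR, adjusted p = 0.178). A rise above 0.68 on the log2 scale is outside this interval.

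*Notch2* (ENSMUSG00000027878, chromosome 3, 97817461 to 97954290, plus strand) had normalized counts of 45.0, 56.9 and 41.8 in the wild type libraries against 59.0, 44.7 and 46.5 in the mutants. The groups overlapped, and the log2 fold change was 0.06 with an interval of -0.74 to 0.87 (edgeR, adjusted p = 0.918), with a value of -0.04 when the libraries were scaled by their totals alone. *Notch3* (ENSMUSG00000038146, chromosome 17, 32257765 to 32303825, minus strand), a receptor known mainly from the smooth muscle of vessels, had 49.7, 97.0 and 43.7 counts in the wild type libraries against 33.1, 63.9 and 28.8 in the mutants. Its highest library was wild type 2, the groups overlapped, and the log2 fold change was -0.60 with an interval of -1.53 to 0.33 (edgeR, adjusted p = 0.333). With a library left out, *Notch3* ran from -1.03 without mutant 2 to -0.15 without wild type 2 (edgeR, adjusted p = 0.148 and 0.864). Without mutant 3 it was -0.39 (edgeR, adjusted p = 0.6).

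The share of each receptor in the summed RPKM of the 3 receptors does not depend on how the libraries are scaled. *Notch1* made up 70.3%, 58.2% and 72.2% of receptor RPKM for wild type 1, 2 and 3, against 74.0%, 73.8% and 78.7% in the mutants. Every mutant share was above every wild type share, with means of 66.9% ± 7.63 in wild type and 75.5% ± 2.76 in the mutants (exact 2-sided permutation test, p = 0.1, the smallest that 3 against 3 libraries can give). The share of *Notch3* was 20.8% ± 7.02 in wild type and 12.5% ± 3.99 in the mutants (exact p = 0.2), and that of *Notch2* was 12.3% ± 0.619 and 11.98% ± 2.93 (exact p = 0.9). The design cannot reach a p under 0.05 for these shares. Without wild type 2, the difference in the *Notch1* share was 4.23 percentage points, against 8.60 with all libraries.

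None of the 4 ligands passed the test, and all 4 had a fitted log2 fold change below 0. *Dll1* (ENSMUSG00000014773, chromosome 17, 15504318 to 15513836, minus strand), a ligand made by secretory progenitors of the gut, had normalized counts of 71.3, 59.7 and 79.8 in the wild type libraries against 55.9, 33.0 and 52.0 in the mutants. All mutant libraries were below all wild type libraries, by a narrow gap between wild type 2 and mutant 1. Means were 70.3 ± 10.1 for wild type and 47.0 ± 12.3 for the mutants, a log2 fold change of -0.58 with an interval of -1.34 to 0.18 (edgeR, adjusted p = 0.242). Without mutant 2 the value of *Dll1* was -0.38.

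*Dll4* (ENSMUSG00000027314, chromosome 2, 119151520 to 119161698, plus strand), which acts beside *Dll1* in the intestine, had 69.4, 76.5 and 67.5 counts in wild type. It had 80.8, 50.1 and 22.1 counts in the mutants, so the mutant libraries spread from above the wild type range to well below it. The log2 fold change was -0.48 with an interval of -1.35 to 0.40 (edgeR, adjusted p = 0.418). It was -0.97 without mutant 1 (edgeR, adjusted p = 0.134) and -0.12 without mutant 3 (edgeR, adjusted p = 0.856).

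*Jag1* (ENSMUSG00000027276, chromosome 2, 136907192 to 136942380, minus strand) and *Jag2* (ENSMUSG00000002799, chromosome 12, 114146801 to 114167706, minus strand) encode the Jagged ligands. The normalized counts of *Jag1* were 35.6, 27.0 and 10.5 for wild type 1, 2 and 3 against 26.9, 26.6 and 7.74 for mutant 1, 2 and 3. Those of *Jag2* were 13.1, 21.4 and 11.4 against 26.9, 10.7 and 5.53. Both genes overlapped between groups, and at such counts the intervals were wide. For *Jag1* the log2 fold change was -0.25 with an interval of -1.60 to 1.10 (edgeR, adjusted p = 0.801), and for *Jag2* it was -0.09 with an interval of -1.55 to 1.37 (edgeR, adjusted p = 0.941). Either direction is within these intervals, and the sign of both genes turned when mutant 3 was left out, to 0.13 for *Jag1* and 0.29 for *Jag2*.

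The DLL ligands exceeded the Jagged ligands in every library. The summed RPKM of *Dll1* and *Dll4* was 4.01, 3.67 and 8.62 times that of *Jag1* and *Jag2* for wild type 1, 2 and 3, against 3.25, 3.06 and 7.44 times for mutant 1, 2 and 3. These ratios overlapped between groups. Of the summed ligand RPKM, *Dll1* made up 42.1% ± 7.14 in wild type and 41.9% ± 18.03 in the mutants and *Dll4* 40.6% ± 2.39 and 38.2% ± 11.0 (exact 2-sided permutation test, p = 1 for both). The shares of *Jag1* were 9.19% ± 4.63 and 10.6% ± 4.98 (exact p = 0.8), and those of *Jag2* 8.07% ± 2.73 and 9.44% ± 3.93 (exact p = 0.7). The signs of the differences were not stable for the ligands, since leaving out 1 library gave *Dll1* -10.7 to 5.28 and *Dll4* -5.71 to 3.85 percentage points. Mutant 3 differed most from its group, with *Dll1* at 62.7% of ligand RPKM against 32.1% and 30.8% in mutant 1 and 2.

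**Figure D2:**
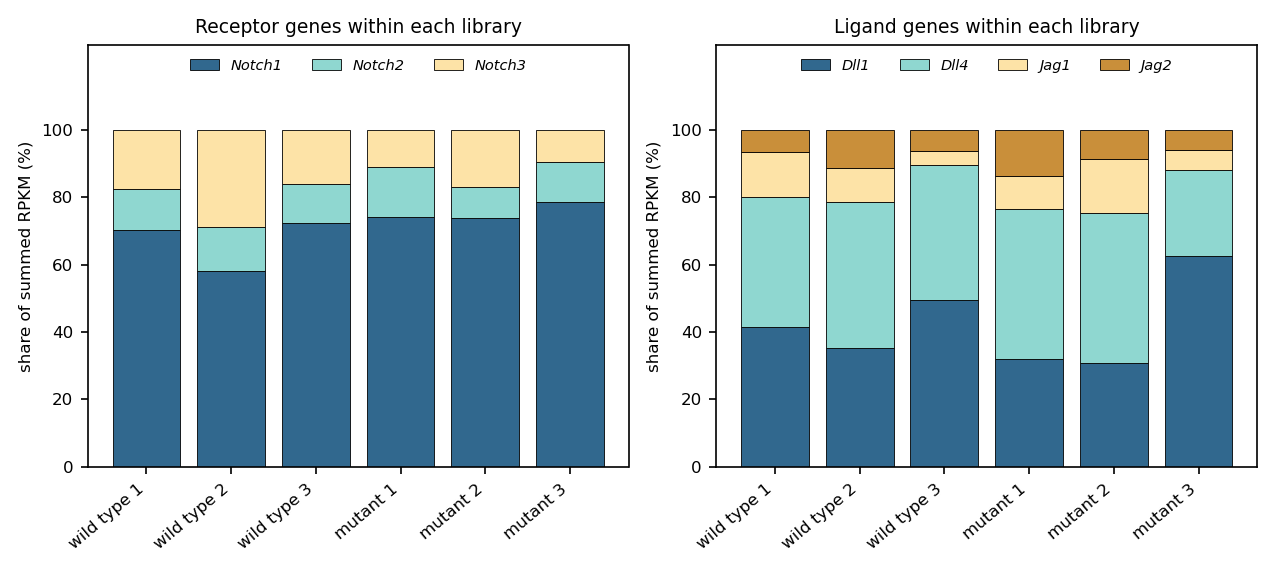
Stacked bars of the share of each gene, in percent, in the summed RPKM of the 3 receptors (left) and of the 4 ligands (right) within each of the 6 libraries. *Notch1* takes 58.2% to 72.2% of receptor RPKM in wild type and 73.8% to 78.7% in the mutants, and *Dll1* reaches 62.7% of ligand RPKM in mutant 3.

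*Rbpj* (ENSMUSG00000039191, chromosome 5, 53947018 to 54048684, plus strand, 11 exons in the longest transcript) had the largest fitted change of the 10 genes and rose. It encodes the protein through which all Notch receptors reach DNA and which holds target genes silent when no receptor is active. Its normalized counts were 234, 230 and 154 for wild type 1, 2 and 3 against 387, 366 and 443 for mutant 1, 2 and 3. Every mutant library was well above every wild type library, and the lowest wild type value was in library 3. The mean rose from 206 ± 45.3 to 399 ± 39.3 (SD, n = 3), a 1.93-fold rise, with a log2 fold change of 0.95, SE 0.19 and a 95% interval of 0.55 to 1.35 (edgeR, adjusted p = 0.00174). A gene was called where the adjusted p was under 0.01, the size of the log2 fold change reached 0.5 and the mean reached 50 normalized counts. *Rbpj* was called higher, as were 2.78% of all tested genes, while 5.83% were called lower. Without mutant 3 the log2 fold change was 0.87 and the adjusted p = 0.0108, which misses the threshold, so the call was lost, while without wild type 3 it was 0.79 with an adjusted p of 0.003 (edgeR).

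Reads of *Rbpj* are not unique to the gene along its whole length. In mm9, 3861 of the 5541 bases of its longest transcript (69.7%) matched a copy on chromosome 6, 46476933 to 46480794, minus strand, at 99.5% identity. The copy is annotated as *Rbpsuh-rs3*, lies within *Cntnap2* on the other strand, and was not analysed here. Of all 84-base windows of the *Rbpj* transcript, 84 bases being the read length, 50.5% were identical to the copy and 49.5% occurred at a single place. For the other 9 genes, 0% of windows were identical to another place. Since the authors counted uniquely mapping reads, windows that are identical at both places add to neither, and the *Rbpj* count comes from the windows that tell them apart. The following 84 bases of coding sequence (transcript positions 1180 to 1263, and chr6:46479803-46479886 on the minus strand) differ between *Rbpj* and the copy at 2 positions, which are in capitals. They are shown because no aligned coding window of 84 bases without a gap held more differences.
Rbpj transcript: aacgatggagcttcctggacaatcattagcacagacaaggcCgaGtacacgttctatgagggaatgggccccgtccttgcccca
Rbpj copy: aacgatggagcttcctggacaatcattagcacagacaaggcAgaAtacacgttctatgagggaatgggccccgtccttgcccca

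*Rbpj* and the copy differ at 18 of the aligned transcript positions, 4 of them coding. The copy lies 26.1 Mb from *Tcf7l1* on chromosome 6, and *Rbpj* lies 25.2 Mb from *Shh* on chromosome 5. How much each place gave to the counted reads was not tested.

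The rise of *Rbpj* can be set beside the letters of its promoter. Promoter windows from RefSeq (GRCm38.p6, 250 bases before the annotated start, matched by sequence to mm9) were found for 9 of the 10 genes, all but *Hes1*, and searched on both strands for TGGGAA, the core that RBPJ binds, CTTTGA, a TCF/LEF core, and CACNAG, the N-box bound by HES proteins, where N is any base. *Rbpj* was the gene whose windows held TGGGAA, with 2 matches in one window and 1 in another, a motif found in 21.6% of 32851 such windows over all genes. In the mm9 annotation each of these windows holds bases of an *Rbpj* exon. In the window with 2 matches, 1 of them lies before the exon bases. *Maml1* was the gene whose window held CTTTGA, found in 13.8% of all windows. CACNAG, found in 36.7% of all windows, occurred in those of *Notch1*, *Notch2*, *Notch3* and *Dll4*, and in none of those of *Dll1*, *Jag1*, *Jag2*, *Rbpj* or *Maml1*. The bases before the annotated exon in one *Rbpj* window (chr5:53981335-53981453, plus strand, within the annotated span of the gene) and of the *Maml1* window (chr11:50105839-50106088, minus strand), both in mm9, are shown with the match in capitals. A match of these letters is a description of the sequence, with no measurement of binding.
Rbpj promoter: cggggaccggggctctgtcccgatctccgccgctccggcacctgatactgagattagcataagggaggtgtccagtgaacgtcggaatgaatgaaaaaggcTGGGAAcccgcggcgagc
Maml1 promoter: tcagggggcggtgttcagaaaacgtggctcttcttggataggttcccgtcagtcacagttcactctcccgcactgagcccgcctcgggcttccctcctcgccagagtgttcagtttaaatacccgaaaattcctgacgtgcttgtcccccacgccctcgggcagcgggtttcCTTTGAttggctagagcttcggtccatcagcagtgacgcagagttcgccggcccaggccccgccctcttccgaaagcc

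*Maml1* (ENSMUSG00000050567, chromosome 11, 50069136 to 50105838, minus strand), the Mastermind coactivator that RBPJ recruits together with the cut receptor, had normalized counts of 81.6, 151 and 76.0 in the wild type libraries against 85.9, 87.3 and 113 in the mutants. Wild type 2 was the highest library, and the groups overlapped. The log2 fold change was -0.11 with an interval of -0.76 to 0.54 (edgeR, adjusted p = 0.82), and without wild type 2 it was 0.27.

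*Hes1* (ENSMUSG00000022528, chromosome 16, 30064470 to 30067882, plus strand, 4 exons), the repressor through which Notch blocks secretory fate genes, had 10090, 8253 and 10810 normalized counts in wild type 1, 2 and 3. It had 6936, 7131 and 7244 counts in mutant 1, 2 and 3. The mutant libraries lay close together and all below the lowest wild type library, which was number 2. The mean fell from 9716 ± 1317 to 7104 ± 156 (SD, n = 3), 1.37-fold, with a log2 fold change of -0.45, SE 0.09 and an interval of -0.63 to -0.27 (edgeR, adjusted p = 0.0013). The fall passed the test on adjusted p but was not a call, since its size was under the fold threshold of 0.5. Without mutant 1 the log2 fold change was -0.43 and the adjusted p = 0.0116 (edgeR). The size of the change crossed the fold threshold in 3 alternatives, at -0.55 with scaling by library totals, -0.56 without wild type 2 and -0.64 with a correction for gene length.

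The ratio of *Hes1* to *Rbpj* within a library restates these values in a form free of the scaling between libraries, and does not show which of the genes moved. There were 43.0, 35.8 and 70.2 *Hes1* counts for each *Rbpj* count in wild type 1, 2 and 3, against 17.9, 19.5 and 16.4 in mutant 1, 2 and 3. This ratio was chosen after the values were seen and is given without a test.

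**Figure D3:**
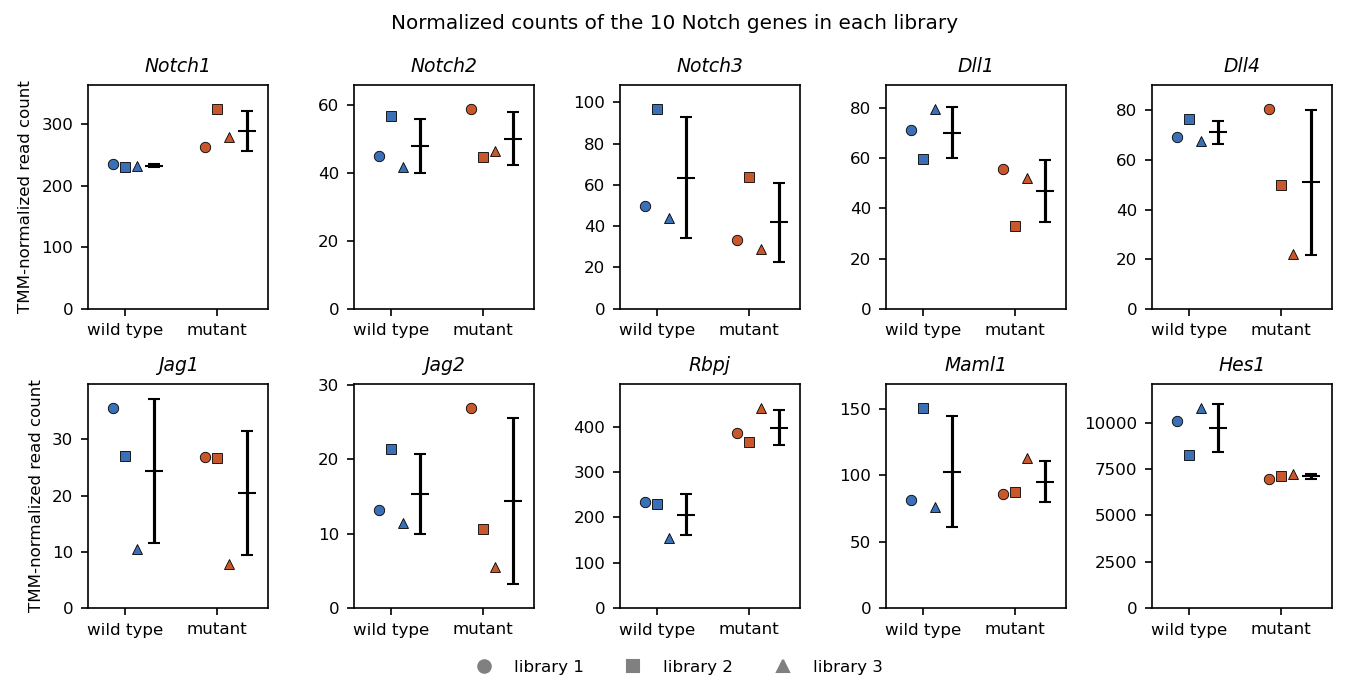
TMM-normalized read counts of the 10 genes, 1 panel per gene with its own axis from 0, with wild type libraries in blue and mutant libraries in orange, symbols for libraries 1 to 3, and the mean ± SD of each group in black. The groups do not overlap for *Notch1*, *Dll1*, *Rbpj* and *Hes1*, with *Rbpj* at 154 to 234 in wild type and 366 to 443 in the mutants.

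Of the 10 genes, 1 passed the test higher and 1 lower, against 7.32% of all tested genes higher and 7.61% lower. No overlap between groups was found for 4 of the 10, or 40% against 43.0% of all tested genes, so this share was near the background. *Notch1* and *Rbpj* were the genes whose mutant libraries were all higher, against 20.8% of all tested genes, and *Dll1* and *Hes1* those whose mutant libraries were all lower, against 22.2%. The fitted log2 fold change was below 0 for 7 of the 10, and 45.7% of all tested genes were above 0. The median was -0.18 over the 10 genes and -0.04 over all tested genes. A total of 7 genes had a mean of at least 50 normalized counts, and *Notch2*, *Jag1* and *Jag2* did not.

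**Figure D4:**
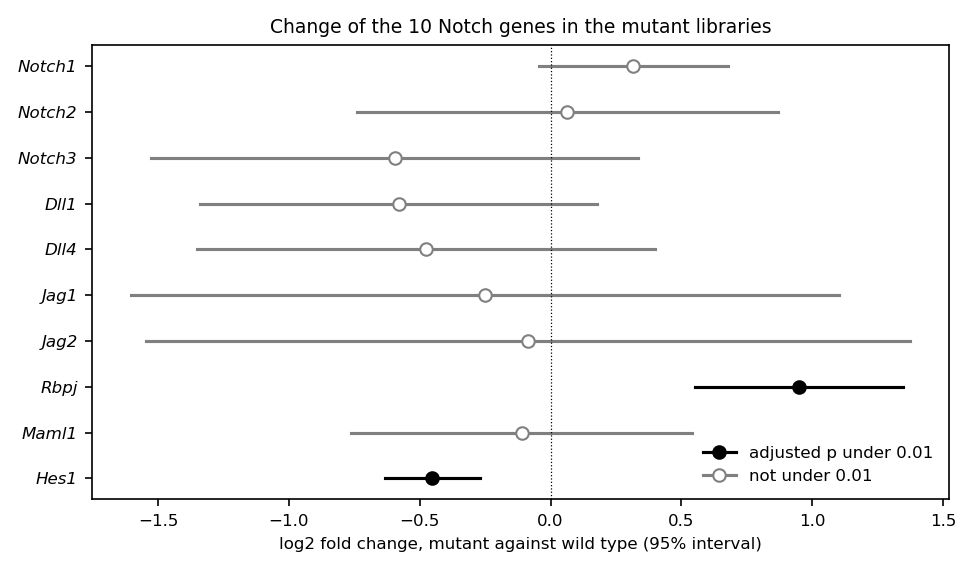
Log2 fold change of each of the 10 genes in the mutant against the wild type libraries, with its 95% interval from edgeR, filled black where the adjusted p was under 0.01 and open grey otherwise. The interval of *Rbpj* runs from 0.55 to 1.35 and that of *Hes1* from -0.63 to -0.27, while the intervals of the other 8 genes span 0.

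Changes in this comparison went with transcript length, so the length class of each gene bears on its value. The median log2 fold change was 0.14 in the shortest of 4 length classes of tested genes (up to 1969 bases), which holds *Hes1*. It was -0.02 in the second, -0.15 in the third, which holds *Dll1*, *Dll4* and *Jag2*, and -0.14 in the longest class (from 4448 bases), which holds the 3 receptors, *Jag1*, *Rbpj* and *Maml1*. *Hes1* and *Rbpj* thus both moved against the median of their class. From the shortest class to the longest, 65.4%, 47.6%, 35% and 34.6% of genes had a fitted value above 0. The share of the 10 genes below 0 was set only against all tested genes, not against genes of like length. With a correction for length, *Rbpj* was at 1.02 (edgeR, adjusted p = 0.00175) and *Hes1* at -0.64 (edgeR, adjusted p = 7.16e-05) on the log2 scale. Exons of noncoding genes on the opposite strand overlapped 20.5% of the exon bases of *Dll1*, 9.76% of *Notch1*, 6.07% of *Notch3* and 5.56% of *Dll4*, and 0% of the other 6 genes. Whether reads were counted by strand is not stated, so for these 4 genes reads of either strand cannot be told apart.

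The rest of the pathway was read from a list of 72 genes grouped by role, of which 66 had a count and 58 were tested. Of the 58, 2 passed the test higher (*Dlk1* and *Olfm4*) and 2 lower (*Ctbp1* and *Neurod1*), or 6.9% in either direction against 14.9% of all tested genes. The fitted value was below 0 for 44 of the 58 genes (75.9%), against 54.3% of all tested genes, and the median was -0.14. All tested genes were not matched to this list for length, so the shares below 0 are not compared like with like. The machinery that modifies, cuts and removes receptors held no gene that passed. This was so for the 5 tested genes of receptor glycosylation such as *Lfng* (log2 fold change -0.05), the 9 of receptor cleavage such as *Adam10* (-0.17) and *Psenen* (0.06), the 4 of ligand ubiquitination such as *Mib1* (-0.02), and the 10 of receptor turnover and inhibition such as *Numb* (-0.08). In the same order of roles, the fitted value was below 0 for 5 of 5, 6 of 9, 4 of 4 and 9 of 10 genes. The medians were -0.15, -0.07, -0.45 and -0.22. Larger falls were fitted for genes such as *Furin* (-1.02, edgeR, adjusted p = 0.0865), *Neurl1a* (-1.14, edgeR, adjusted p = 0.146) and *Mfng* (-0.92, edgeR, adjusted p = 0.251). The groups did not overlap for *Furin* and overlapped for *Neurl1a* and *Mfng*. None of the 7 coactivators passed.

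Among the other ligands and receptors, *Dlk1*, an atypical ligand that lacks the domain by which DLL and JAG proteins activate receptors, had normalized counts of 2659, 2208 and 2658 in the wild type libraries against 3426, 3774 and 3610 in the mutants. The groups did not overlap, and it rose by 0.52 on the log2 scale (SE 0.09, edgeR, adjusted p = 0.000418) and was called. The value of *Dlk1* was under the fold threshold with scaling by library totals (0.42), without wild type 2 (0.44) and without mutant 2 (0.49). *Notch4*, a receptor of endothelium, had 3.75 to 25.7 counts in wild type and 6.21 to 15.5 in the mutants, with a log2 fold change of -0.48 (edgeR, adjusted p = 0.682) that turned to 0.38 without wild type 3. *Dll3* had at most 8.85 counts in any library and was not tested.

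Of the 14 tested corepressors that work with RBPJ or HES proteins, *Ctbp1* passed lower, or 7.14% against 7.61% of all tested genes. *Ctbp1* had 7926, 7249 and 6469 counts in the wild type libraries against 6018, 5131 and 5507 in the mutants. It fell by 0.38 on the log2 scale (edgeR, adjusted p = 0.00369), under the fold threshold, and the adjusted p was 0.0148 to 0.0296 when wild type 1, wild type 2, mutant 2 or mutant 3 was left out. The other effectors of the HES and HEY families held none that passed. *Hes6*, a family member that counteracts HES1, was at 3010 ± 52.1 counts in wild type and 2737 ± 150 in the mutants, without overlap (log2 fold change -0.14, edgeR, adjusted p = 0.185). With the length correction *Hes6* was at -0.31 with an adjusted p of 0.00611 (edgeR). *Hey1* had 25.7 ± 9.46 and 14.4 ± 6.01 counts (log2 fold change -0.84, edgeR, adjusted p = 0.319), and *Hes5* had 0 counts in all 6 libraries.

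Of the 4 tested genes that lie under Notch control in the intestine, 1 passed higher and 1 lower. This was 50% of a short list, against 14.9% of all tested genes. *Olfm4*, a stem cell gene that Notch activates in the adult crypt, had normalized counts of 40.3, 76.5 and 82.7 in the wild type libraries against 262, 215 and 183 in the mutants. It rose 3.31-fold without overlap (log2 fold change 1.72, SE 0.28, edgeR, adjusted p = 0.000369). *Neurod1*, an enteroendocrine factor that Notch signalling holds back, was counted at 99.4, 112.8 and 57.0 in the wild type libraries and at 0 in all mutants. It was at least 84.2-fold lower, computed against a floor of 3 counts over the group (edgeR, adjusted p = 6.76e-06), and was not a call because its mean was under 50 normalized counts. *Atoh1*, the factor that starts secretory fate and which HES1 represses, was at 28.8 ± 5.29 counts in wild type and 32.7 ± 13.9 in the mutants (log2 fold change 0.18, edgeR, adjusted p = 0.82), turning to -0.22 without mutant 3. In the mutants, the fall of *Hes1* thus stood beside a level of *Atoh1* whose interval ran from -0.88 to 1.23 on the log2 scale.

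**Figure D5:**
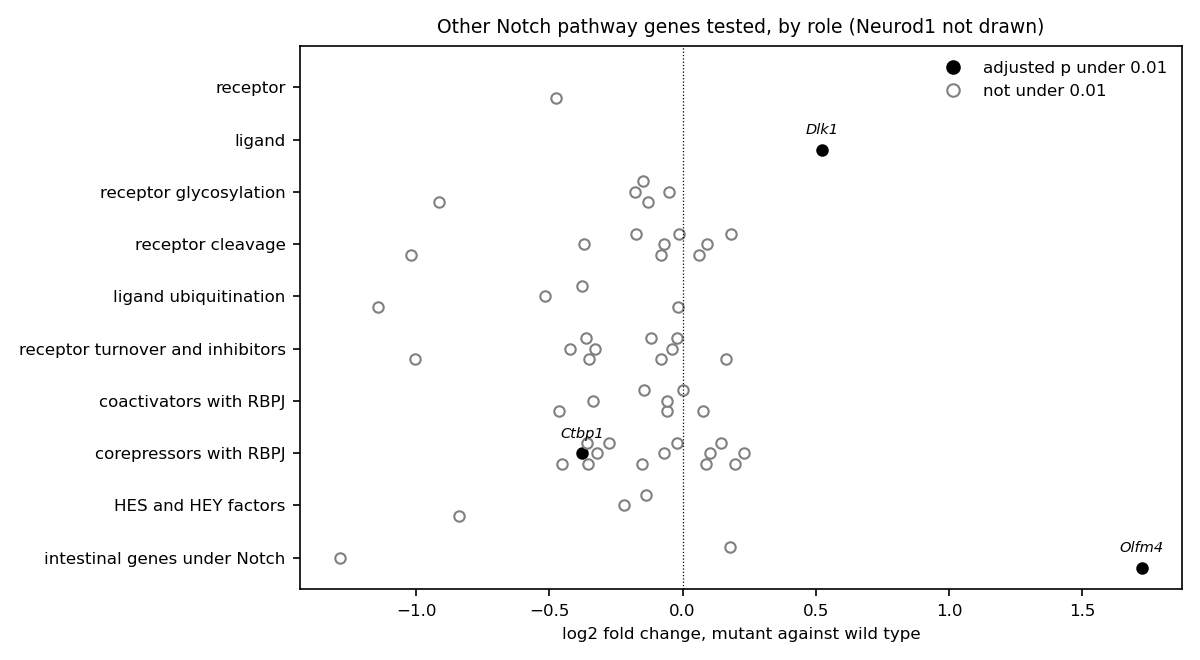
Log2 fold change in the mutant against the wild type libraries of the tested genes of the pathway list, 1 point per gene in rows by role, filled where the adjusted p was under 0.01. *Dlk1* at 0.52, *Olfm4* at 1.72 and *Ctbp1* at -0.38 are filled, and *Neurod1*, at 0 in all mutants, is not drawn.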

How the data were processed

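RNA-sequencing counts of 6 libraries were used. The authors sorted 500 EpCAM-positive cells per library, made cDNA with the SMARTer v4 kit (15 PCR cycles), sequenced 84-base reads, mapped them with STAR 2.5.2b to mm9, and took the number of uniquely mapping reads of each gene from featureCounts 1.5.1. They deposited these raw read counts, without normalization, in a table per library. PCR reads without molecular identifiers are not independent molecules, so floors cover counting error only.

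Of 23366 genes, 17112 had a count and 12501 passed filterByExpr. Genotypes were compared with edgeR 4.0.16 (R 4.3.3; TMM, quasi-likelihood test, Benjamini-Hochberg adjustment over all tested genes), and shares with an exact permutation test over libraries. The study's methods used DESeq2, run here as an alternative (version 1.42.0). The study also required an RPKM of at least 50, and a mean of at least 50 normalized counts was used here. RPKM was computed from TMM-scaled counts and the longest transcript of an mm9 annotation, in which 98.5% of tested genes had a length. BLAST+ 2.17.0 was used to look for copies (alignments of 84 bases or more at 95% identity or more), and sequences read with Python 3.11.15. The test was tried on simulated data.

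The members, the lists and the tests were chosen with earlier results of these data known. The text names the 10 members, *Tcf7l1*, *Shh*, every other pathway gene with an adjusted p under 0.01, and *Notch4*, *Dll3*, *Hes5*, *Hey1*, *Hes6*, *Atoh1* and *Olfm4*. Other named genes were chosen after their values were seen, as examples or markers. Marker lists also covered blood (9 genes, 6 at 0 in all libraries, 0.273 to 1.67 CPM) and neural crest (7 genes, 10.8 to 21.1 CPM). The alternatives were DESeq2, RLE normalization, scaling by library totals, no filter on low counts, a replicate block, a correction for gene length by loess with a span of 0.5, an adjusted p under 0.05, shares of counts in place of RPKM, and each library left out. An RPKM of *Rbpj* over the length of windows with a unique sequence was added after the data were seen.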

Additional observations from a re-analysis of the deposited data

How the results depend on the processing

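Over 12 alternatives for each of the 10 genes, 109 of 120 values kept their direction and side of the threshold. Of 49 alternatives for the share differences, 9 turned the sign, in *Notch2*, *Dll1*, *Dll4*, *Jag1* and *Jag2*. None turned it in *Notch1* (4.23 to 11.2 percentage points) or *Notch3* (-10.7 to -4.25). All moved by less than 1 SD between libraries. Leaving out a single library cannot move a difference that far, so this does not show that the shares are stable. *Rbpj* stayed between 0.79 and 1.05 and *Hes1* between -0.64 and -0.35 on the log2 scale. With a library left out, the adjusted p of *Rbpj* was 0.003 to 0.0108 and that of *Hes1* 0.000116 to 0.0116 (edgeR; log2 fold changes of -0.56 to -0.35), each lost with 1 library, *Rbpj* without mutant 3 (0.87) and *Hes1* without mutant 1 (-0.43). No value of *Notch1*, *Notch3*, *Dll1* or *Dll4* turned or passed, and with a library left out they were 0.22 to 0.38, -1.03 to -0.15, -0.72 to -0.38 and -0.97 to -0.12. Leaving out single libraries gave *Notch2* -0.07 to 0.21, *Jag1* -0.60 to 0.13, *Jag2* -0.91 to 0.29 and *Maml1* -0.27 to 0.27, and scaling by library totals put *Notch2* at -0.044. They gave *Notch4* -0.97 to 0.38, above 0 without wild type 3, and *Atoh1* -0.22 to 0.37, below 0 without mutant 3. The depth, 18216537 to 20397278 counts, left under 50 normalized counts on average for *Notch2*, *Jag1* and *Jag2*, and of the 4 ligands and 3 receptors *Notch1* had the narrowest interval.

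Over all genes, 348 were called higher and 729 lower. Scaling by library totals gave 200 and 957, with 17.3% of calls higher against 32.3% and a median of all genes at -0.15 against -0.04. An adjusted p under 0.05 gave 1178 lower calls. With a library left out there were 260 to 516 higher and 405 to 867 lower calls, with lower calls at 405 when wild type 1 was left out, 406 when it was wild type 2 and 463 when it was mutant 2. Of the other pathway genes, 2 were higher and 2 lower. DESeq2 gave 4 and 4, scaling by library totals 4 lower and no filter 5 lower. With a library left out there were 2 to 4 higher, with 4 without wild type 3, and 1 to 3 lower, with 1 without wild type 2 or without mutant 3. The causes of these shifts were not tested.

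The replicate numbers did not pair the samples, since deviations of same-numbered libraries correlated at 0.0097, -0.0449 and -0.0179. A fit with the replicate block gave 339 higher and 691 lower calls, 2 higher and 3 lower other pathway genes, *Rbpj* at 0.97 and *Hes1* at -0.44, and changed no call among the 10 genes.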

Other observations

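Some pathway genes outside the rule for names were left untested or had an adjusted p between 0.01 and 0.05 (edgeR), and were chosen here after their values were seen. *Neurog3*, the factor that starts enteroendocrine fate, was not tested, with 2.81, 167 and 85.5 normalized counts for wild type 1, 2 and 3 against 0, 6.39 and 2.21 for mutant 1, 2 and 3, so that wild type 1 lay within the mutant range. In that range of adjusted p, 4 genes had a fitted change below 0 and 2 above. The share of all tested genes in that range is not given here. *Spdef*, a goblet cell factor, had 92.8, 124.0 and 120.7 counts in the wild type libraries against 24.9, 66.0 and 47.6 in the mutants, without overlap (log2 fold change -1.29, edgeR, adjusted p = 0.0133). *Kat2a*, a histone acetyltransferase, was at -0.46 on the log2 scale (edgeR, adjusted p = 0.0118) with overlapping groups. *Itch*, a ubiquitin ligase that targets Notch, was at -0.33 (edgeR, adjusted p = 0.0213), and the corepressor *Tle4* at -0.32 (edgeR, adjusted p = 0.0375), both without overlap. The corepressor *Ncor1* was at 0.23 (edgeR, adjusted p = 0.0232) and the histone deacetylase *Hdac1* at 0.20 (edgeR, adjusted p = 0.0404), both without overlap.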
